A study of Mus musculus with 48 samples.

Results

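The 10 genes described here were Dab2, Gata4, Gata6, Sox17, Sox7, Foxa2, Lama1, Lamb1, Lamc1 and Col4a1, out of 20171 genes in the count table. They were chosen by name: Dab2 because it stood among the most lowered genes in lysates of Ago2 knockout cells, and the others as genes of the primitive endoderm, to see whether they shared that level. Dab2 was therefore picked with the lysate values of Ago2 knockout and HA-Tnrc6a cells in view, and those values are a description: counts past the threshold are printed beside the share over all genes, with no p and nothing read from them. For Dab2 itself, no p is given in any comparison that uses those inputs. All 10 genes were found in the table, and all 10 passed the filter on low counts in each of the 9 comparisons.

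The primitive endoderm is the epithelium that lines the blastocyst cavity and gives rise to the parietal and visceral yolk sac endoderm. Gata6 acts at the top of its transcription factor cascade, followed by Gata4, Sox17 and Sox7, and the differentiated cells lay down a basement membrane of laminin and type IV collagen. Dab2 is a clathrin adaptor that sorts receptors such as megalin and cubilin into coated pits and is needed for an ordered endoderm layer. Cultures of mouse embryonic stem cells in serum and LIF are known to hold a minority of cells that express these genes.

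The study sequenced total RNA from lysates (inputs) and from HA immunoprecipitates (IPs) of mouse embryonic stem cells, to find the RNAs held by Tnrc6a, a GW182 protein that links Argonaute to mRNA decay. Every line derived from 129S6/SvEvTac cells with the GFP_5xT71BS reporter, and the parental line is labelled as stably transfected with FLAG-Cas9::T2A::Blasticidin. The 4 genotypes were the untagged parental line, HA-AVI-Tnrc6a (called HA-Tnrc6a), HA-AVI-Tnrc6a with Ago2-/- and HA-AVI-Tnrc6a with Upf1-/-. Both knockout lines thus carry the tag as well, their control is HA-Tnrc6a, and the labels do not say how many clones stand behind a line. Each genotype and fraction had 3 dishes in each of 2 experiments, numbered 3 and 4, which made 48 libraries. The table numbers the libraries of a group 1 to 6, and 1 to 3 were taken as experiment 3 and 4 to 6 as experiment 4, which the labels do not state. The series' text describes triplicate dishes and no separate clones, so p-values measure the spread between these samples only.

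Levels are in CPM, counts scaled to a common library total, after TMM scaling over all 48 libraries. Input totals were 15383953 to 19595405 counts in experiment 3 and 26458831 to 37179105 in experiment 4, and IP totals were 11471544 to 18344233 and 25724085 to 73845953. Ago2 mRNA in the Ago2 knockout inputs was 92.8 to 97.1 CPM against 205 to 210 in HA-Tnrc6a in experiment 3, and 124 to 136 against 303 to 323 in experiment 4. Inputs with the Upf1-/- label held more Upf1 mRNA than HA-Tnrc6a inputs, at 123 ± 0.874 CPM against 77.6 ± 4.95 in experiment 3 and 139 ± 3.47 against 98.5 ± 1.58 in experiment 4 (mean ± SD, n = 3 each), so they are called "labelled Upf1 knockout" throughout. Pluripotency genes were abundant in all inputs: the summed level of 16 such genes ran from 8842 to 10445 CPM, and Pou5f1 from 1131 to 1888 CPM. The HA-Tnrc6a inputs of experiment 3 stood apart from the other genotypes of that experiment for most of the 10 genes, so each input result is given by experiment.

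Per kilobase of the gene length in the table, the 10 genes covered a wide range in HA-Tnrc6a inputs. Lamc1, the laminin gamma 1 chain, was highest at 49.6 ± 9.20 CPM per kilobase (mean ± SD over 6 libraries of both experiments). Col4a1 followed at 12.6 ± 1.30, then Lamb1 at 8.54 ± 0.713 and Lama1 at 8.03 ± 1.23 CPM per kilobase. Among the regulators, Gata4 reached 2.26 ± 0.282 and Sox7 0.946 ± 0.0985 CPM per kilobase, with Dab2 between them at 1.95 ± 0.557. Gata6 at 0.819 ± 0.248, Sox17 at 0.568 ± 0.0732 and Foxa2 at 0.265 ± 0.0996 CPM per kilobase were lowest. Neighbours in this order lay within their spread for Lamb1 and Lama1, for Gata4 and Dab2, for Sox7 and Gata6, and for Gata6 and Sox17. The label of an endoderm set was met in part: the structural genes were far more abundant than the regulators, and Foxa2, a regulator that also marks definitive endoderm, had no more than 29 counts in any input.

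The sequences upstream of the Dab2 starts are shown because Dab2 heads the set and GATA factors are known to bind promoters of endoderm genes. Windows from RefSeq's promoter table (GRCm38.p6) were read for 4 of the 10 genes, Dab2, Foxa2, Lamb1 and Col4a1, with 7 in all. No window of the other genes, Gata6 among them, was read, and their absence from that table was not shown. The motif counts of the set below cover these 4 genes only. Each sequence is the 250 bases before a start, on the plus strand, 5′ to 3′, at chr15:6299539-6299788 for the first start and chr15:6386498-6386747 for the second. Capitals mark a match to AGATAA or TGATAA on either strand.
Dab2 first start: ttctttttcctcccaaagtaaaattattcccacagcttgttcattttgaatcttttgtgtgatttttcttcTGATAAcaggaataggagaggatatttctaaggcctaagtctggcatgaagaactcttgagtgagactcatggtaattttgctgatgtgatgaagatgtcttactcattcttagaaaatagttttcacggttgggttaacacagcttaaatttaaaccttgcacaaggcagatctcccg
Dab2 second start: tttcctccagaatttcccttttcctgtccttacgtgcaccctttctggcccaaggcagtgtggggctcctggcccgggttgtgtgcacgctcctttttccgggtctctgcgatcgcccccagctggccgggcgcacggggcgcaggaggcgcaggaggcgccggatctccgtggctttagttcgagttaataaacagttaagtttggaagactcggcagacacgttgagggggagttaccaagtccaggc

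The first Dab2 window held 1 such match, which begins 179 bases before the start, and the second, richer in G and C (60.0% against 36.8%), held none. A match was present in 2 of the 7 windows, in the first of Dab2 and in 1 of 3 of Foxa2, and in 16.6% of all 32851 windows of that length. ACAATG or ACAAAG, a SOX-type core, was found in 1 of the 7 windows and in 25.2% of all windows, and TGTTTAC or TGTTTGC, a forkhead core, in 0 of 7 and in 7.29% of all. The table's full entries for the Col4a1 and Col4a2 starts, which also hold bases after the start, lie on opposite strands and share 78 bases (chr8:11312777-11312854). Their parts before the starts do not overlap.

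In inputs, Dab2 was higher in HA-Tnrc6a cells than in every other genotype in experiment 3, and lowest in Ago2 knockout cells in both experiments. In experiment 3 its level was 17.8, 17.9 and 18.3 CPM in HA-Tnrc6a, 3.23, 3.83 and 3.01 in untagged, 4.59, 4.49 and 3.56 in labelled Upf1 knockout, and 1.31, 1.52 and 2.37 CPM in Ago2 knockout libraries. No library of another genotype reached the HA-Tnrc6a range there. In experiment 4 it was 11.6, 9.63 and 10.6 CPM in HA-Tnrc6a, 11.3, 10.3 and 11 in untagged, 6.48, 8.06 and 9.24 in labelled Upf1 knockout, and 3.15, 2.54 and 1.87 CPM in Ago2 knockout libraries. There, untagged and HA-Tnrc6a libraries overlapped, while the Ago2 knockout libraries stayed below all others. The fold change of Ago2 knockout against HA-Tnrc6a was 6.66-fold lower (log2 -2.73 ± 0.11 SE), with log2 -3.39 in experiment 3 and -2.08 in experiment 4. Against untagged inputs it was log2 -0.97 in experiment 3 and -2.12 in experiment 4. In bulk RNA, fewer cells that express a gene and less RNA per cell cannot be told apart, and this holds for every level below.

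**Figure D1:**
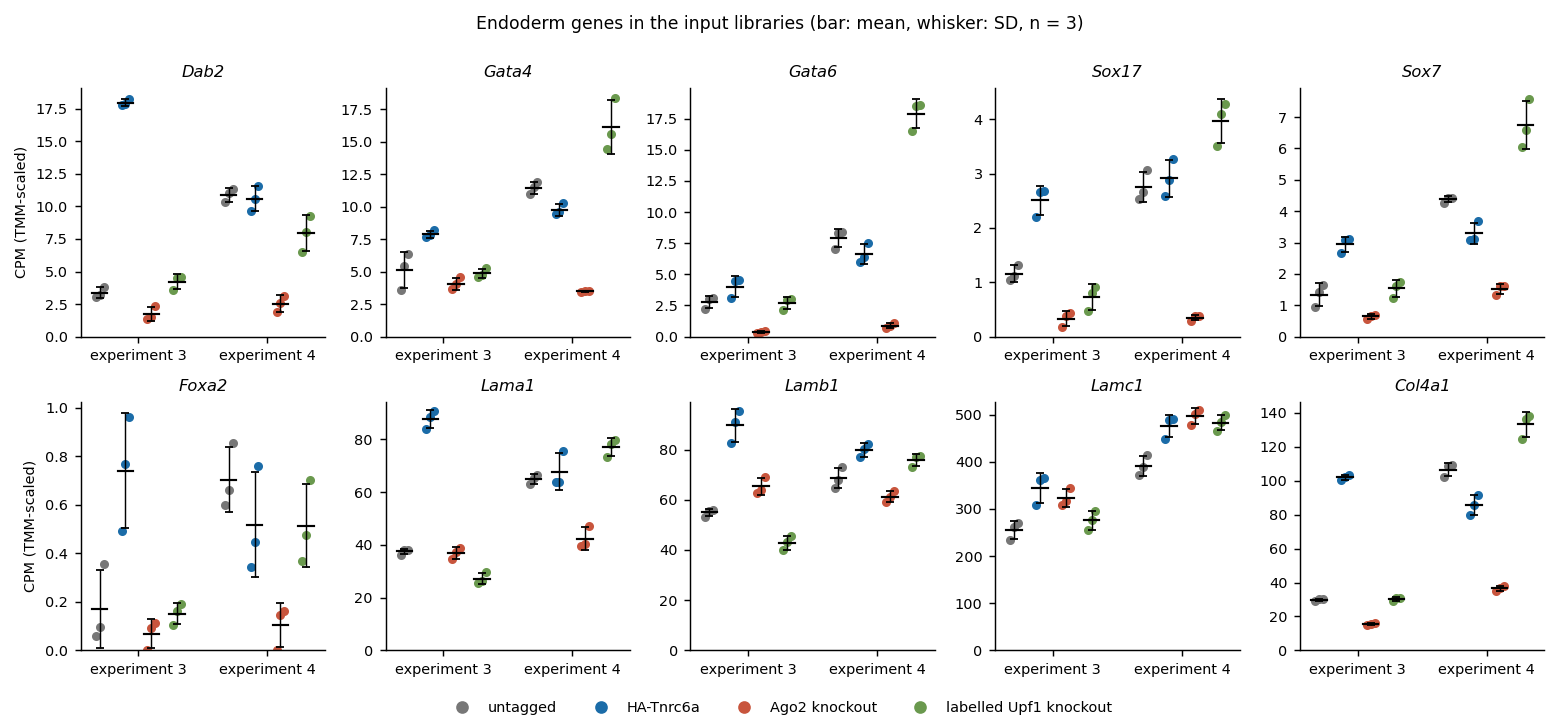
Level of each of the 10 genes (CPM, linear axis from 0) in the 24 input libraries, by experiment and genotype; points are libraries, bars the mean and whiskers the SD of 3. In Ago2 knockout inputs Gata6 and Sox17 lie below every other library of their experiment, whereas the HA-Tnrc6a inputs lie well above the untagged ones for Dab2 and Col4a1 in experiment 3 only.

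Dab2 was not the lowest gene of that contrast by fold change alone. By edgeR's quasi-likelihood fit it ranked 19 from the bottom among the 19641 genes tested, with Bmper (log2 -5.16 ± 0.72), Ankrd1 (-5.04 ± 0.74) and Xlr5a (-4.55 ± 0.71) at the bottom, each at an average log2 CPM below 0. Among genes past an adjusted p of 0.05 with an average log2 CPM of at least 3 and the same sign in both experiments, Dab2 was the lowest. The next were Xlr3b at -2.15 ± 0.09, Xlr3a at -2.05 ± 0.06, Col4a1 at -1.96 ± 0.04 and Col4a2 at -1.96 ± 0.06. The average log2 CPM of Dab2 was 3.12, just above that limit. These non-member genes were picked after their values were seen.

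Of the 10 genes, 9 passed an adjusted p of 0.05 as lower in Ago2 knockout than in HA-Tnrc6a inputs and 0 as higher. Of all genes tested, 30.9% passed in either direction, 15.7% as higher and 15.2% as lower, so the share of lower calls is set beside that background, and nothing is read from it because the contrast chose Dab2. The median log2 fold change was -1.81 over the 10 genes and -0.01 over all genes tested. In 9 of the 10, every Ago2 knockout library lay below every HA-Tnrc6a library within both experiments, which held for 6.61% of all genes tested.

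Gata6, the regulator that starts the endoderm programme, had the lowest log2 value of the 10 when averaged over both experiments, although Sox17 was lower in experiment 4 (-3.06 against -2.95) and the errors of the averaged values overlap. Its input level in experiment 3 was 3.06, 4.52 and 4.46 CPM in HA-Tnrc6a, 2.19, 3.00 and 3.12 in untagged and 3.03, 2.17 and 2.97 in labelled Upf1 knockout libraries, against 0.328, 0.282 and 0.441 in Ago2 knockout. In experiment 4 it was 7.54, 6.02 and 6.39 CPM in HA-Tnrc6a, 7.06, 8.31 and 8.38 in untagged, 18.6, 18.5 and 16.5 in labelled Upf1 knockout and 0.651, 0.857 and 1.06 in Ago2 knockout. The Ago2 knockout libraries were lowest in both experiments without overlap, and the labelled Upf1 knockout libraries were highest in experiment 4. Ago2 knockout differed from HA-Tnrc6a by log2 -3.23 ± 0.17 and from untagged by -3.09 ± 0.17. The antisense gene Gata6os overlaps Gata6, with no more than 40 counts in a library against up to 1014 for Gata6, and whether counting used strand is not given in the sources used here.

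Sox17, an SRY-box factor of primitive and definitive endoderm, was also lowest in Ago2 knockout. In experiment 3 it was 2.67, 2.66 and 2.21 CPM in HA-Tnrc6a, 1.04, 1.33 and 1.12 in untagged, 0.805, 0.464 and 0.918 in labelled Upf1 knockout and 0.375, 0.169 and 0.441 in Ago2 knockout inputs. In experiment 4 it was 3.26, 2.59 and 2.88 CPM in HA-Tnrc6a, 2.66, 3.07 and 2.53 in untagged, 4.29, 4.09 and 3.51 in labelled Upf1 knockout and 0.380, 0.371 and 0.295 in Ago2 knockout. Ago2 knockout inputs, with 3 to 14 counts each, lay below all others in both experiments. The difference was log2 -2.98 ± 0.21 from HA-Tnrc6a and -2.39 ± 0.23 from untagged inputs. For Gata6 and Sox17 alone among the 10, the Ago2 knockout inputs of both experiments together did not overlap with the untagged inputs of both.

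Sox7 and Gata4, later regulators of the same lineage, were lower by smaller folds. Sox7 averaged 0.642 ± 0.0716 CPM in Ago2 knockout against 2.95 ± 0.240 in HA-Tnrc6a inputs of experiment 3, and 1.51 ± 0.157 against 3.29 ± 0.345 in experiment 4 (n = 3 each). Gata4 averaged 4.08 ± 0.463 against 7.88 ± 0.288 CPM and 3.48 ± 0.0379 against 9.78 ± 0.469. The log2 differences over both experiments were -1.66 ± 0.16 for Sox7 and -1.22 ± 0.09 for Gata4. Untagged inputs of experiment 3 had 5.12 ± 1.40 CPM of Gata4, and 1 of those 3 libraries, at 3.59 CPM, lay below all 3 Ago2 knockout libraries (3.64 to 4.56 CPM). Foxa2 was read from 0 to 6 counts in Ago2 knockout and 9 to 29 in HA-Tnrc6a inputs, and its log2 difference of -2.79 ± 0.47 had the widest error of the 10.

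The 4 basement membrane genes did not share 1 level. Col4a1, the alpha 1 chain of type IV collagen, was 16.3, 15.1 and 15.7 CPM in Ago2 knockout against 103, 102 and 100 in HA-Tnrc6a inputs of experiment 3, and 35.0, 38.0 and 36.5 against 85.6, 91.5 and 79.7 in experiment 4 (log2 -1.96 ± 0.04). The laminin alpha 1 chain gene Lama1 averaged 37.0 ± 2.19 against 87.7 ± 3.31 CPM and 42.4 ± 4.24 against 67.8 ± 6.85 (log2 -0.96 ± 0.05). Lamb1 averaged 65.3 ± 3.46 against 89.7 ± 6.63 CPM and 61.2 ± 2.25 against 79.7 ± 2.69 (log2 -0.42 ± 0.03). Lamc1 overlapped in both experiments, with 323 ± 18.5 against 345 ± 31.5 and 497 ± 16.6 against 476 ± 23.7 CPM (log2 -0.02 ± 0.04). In experiment 3, Lama1 in Ago2 knockout inputs also overlapped with the untagged inputs (36.3, 38.2 and 37.9 CPM), and Lamb1 lay above them (56.1, 53.3 and 55.5 CPM).

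Against untagged inputs, which the choice of Dab2 did not use on that side, Ago2 knockout inputs were lower in 8 of the 10 genes, higher in Lamc1 (log2 0.34 ± 0.04) and not different past the threshold in Lamb1 (0.04 ± 0.04), beside 38.2% of all genes called, 19.3% as higher and 18.9% as lower. In 5 of the 10 the Ago2 knockout libraries lay below the untagged ones in both experiments without overlap, as in 8.55% of all genes. This contrast shares the Ago2 knockout libraries with the choice and is also a description. The median log2 fold change of the 10 was -1.26, and -0.01 over all genes tested.

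The tagged line without a knockout was then compared with its untagged parent, in lysates, to see how far the control itself varied. In experiment 3, untagged inputs lay below HA-Tnrc6a inputs without overlap in 9 of the 10 genes, all except Gata6. In experiment 4, they lay below in 2 (Lamb1 and Lamc1), above in 3 (Gata4, Sox7 and Col4a1) and overlapped in the others. The share of all genes without overlap within 1 experiment was not counted. With experiment 3 alone, edgeR's test called 7 of the 10 lower and 0 higher, beside 429 and 223 of all genes. Over both experiments, edgeR's test called 6 of the 10 lower in untagged inputs and 0 higher, beside 15.4% of all genes called, 7.74% as lower and 7.67% as higher. Lower without overlap in both experiments were 2 of the 10 and 3.65% of all genes. Dab2, at log2 -1.19 ± 0.08, is a description here. The other five were Col4a1 (-0.73 ± 0.04, adjusted p = 5.50e-14), Lama1 (-0.64 ± 0.04, adjusted p = 1.29e-11), Sox17 (-0.59 ± 0.14, adjusted p = 0.0045), Lamb1 (-0.46 ± 0.04, adjusted p = 2.83e-09) and Lamc1 (-0.36 ± 0.04, adjusted p = 6.85e-06). These tests use the HA-Tnrc6a inputs that also entered the choice of Dab2. The members were also chosen with earlier results of these data known. The p-values of this contrast are therefore not independent of the choice.

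The difference between untagged and HA-Tnrc6a inputs itself differed between experiments in 8 of the 10 genes, beside 3.40% of all genes tested. For Dab2 it was log2 -2.41 in experiment 3 and 0.04 in experiment 4, a change of 2.45 ± 0.16, given as a description. For Col4a1 it was -1.77 and 0.32, a change of 2.09 ± 0.08 (adjusted p = 3.94e-17). Lama1 changed from -1.23 to -0.06 and Sox7 from -1.17 to 0.41. The 2 genes without such a call were Gata6 (0.78 ± 0.23, adjusted p = 0.0549) and Lamc1 (0.15 ± 0.09, adjusted p = 0.421). With experiment 4 alone, 2 of the 10 passed the threshold as higher and 2 as lower, beside 2163 and 2030 of all genes. Dab2 was at log2 0.03 there.

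**Figure D2:**
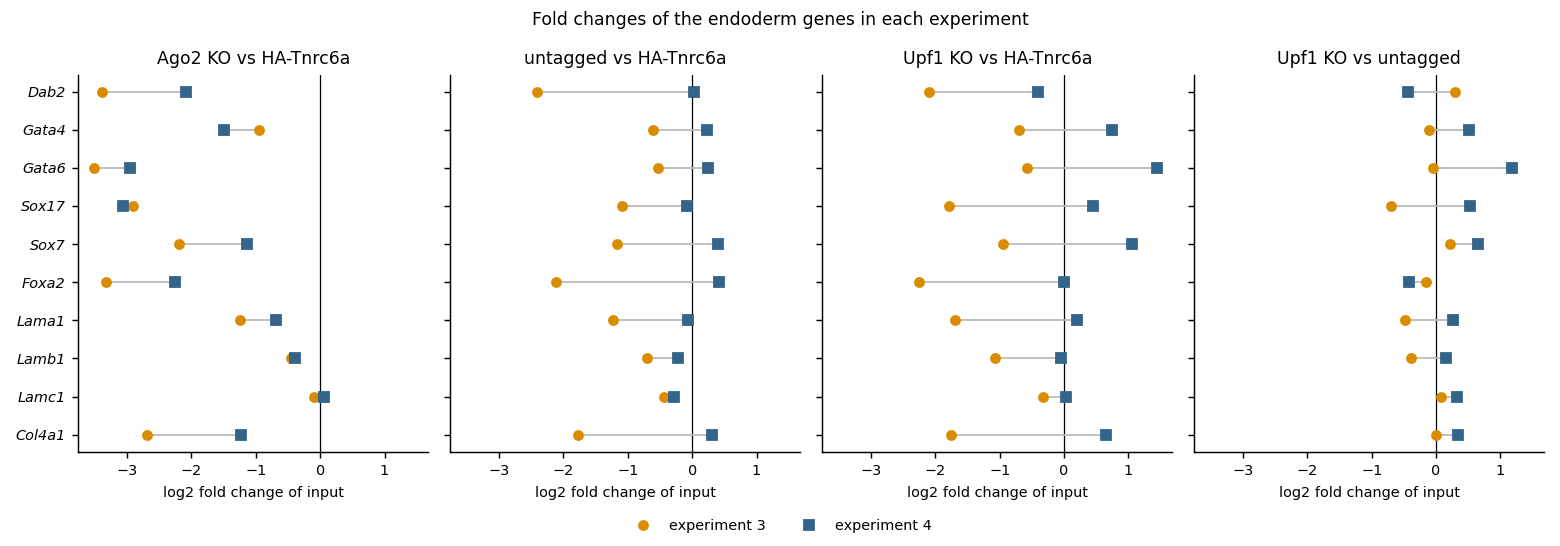
Log2 fold change of each gene between input groups (horizontal axis) in experiment 3 (circles) and experiment 4 (squares), for 4 comparisons; grey lines join the 2 experiments. Ago2 knockout values are negative in both experiments for 9 genes, while for untagged and labelled Upf1 knockout cells the experiment 3 values lie to the left of the experiment 4 values for all 10 genes against HA-Tnrc6a.

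Inputs labelled Upf1 knockout showed a similar split by experiment. In experiment 3 all 10 genes lay below HA-Tnrc6a without overlap, and in experiment 4 Dab2 alone lay below while Gata4, Gata6, Sox17, Sox7 and Col4a1 lay above. The share of all genes without overlap within 1 experiment was not counted. With experiment 3 alone, edgeR's test called 9 of the 10 lower and 0 higher, beside 4144 and 4427 of all genes. With experiment 4 alone it called 1 lower and 6 higher, beside 4718 and 5106. Over both experiments, 7 genes were called lower and 1 higher, beside 58.6% of all genes called, 29.5% as higher and 29.0% as lower. Dab2 was the 1 gene of the 10 that was lower without overlap in both experiments, as were 16.9% of all genes. These tests share the HA-Tnrc6a inputs too, so their p-values are likewise not independent of the choice. For Dab2 the value is a description, at log2 -1.25 ± 0.08 (-2.10 in experiment 3 and -0.40 in experiment 4). Gata6 rose by 0.43 ± 0.10 (adjusted p = 0.000366), but its values were -0.57 in experiment 3 and 1.44 in experiment 4. The difference between experiments passed the threshold in 9 of the 10 genes, beside 11.6% of all genes, and was largest in Col4a1 (2.42 ± 0.07, adjusted p = 1.28e-30). The call of Lamc1 (log2 -0.15 ± 0.05, adjusted p = 0.0341) was lost with library totals in place of TMM, with all libraries in 1 fit, and in 7 of 12 fits that left out a library.

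A comparison of labelled Upf1 knockout with untagged inputs used no library from the choice of Dab2. There, 4 of the 10 genes were higher and 2 lower, beside 52.9% of all genes called, 26.8% as higher and 26.1% as lower. Lower without overlap in both experiments were 0 of the 10 and 15.0% of all genes. Gata6 was higher by log2 0.56 ± 0.11 (adjusted p = 5.50e-05), Sox7 by 0.43 ± 0.14 (adjusted p = 0.0124), Lamc1 by 0.20 ± 0.04 (adjusted p = 0.000111) and Col4a1 by 0.16 ± 0.04 (adjusted p = 0.0012). Lama1 (-0.11 ± 0.04, adjusted p = 0.0296) and Lamb1 (-0.11 ± 0.04, adjusted p = 0.0263) were lower, but in experiment 4 both lay above the untagged libraries. Of the 4 higher genes, Gata6 was at log2 -0.05 in experiment 3 and 1.18 in experiment 4, and Col4a1 at -0.01 and 0.33. Sox7 was at 0.21 and 0.64, and Lamc1 at 0.08 and 0.32. Dab2 did not pass the threshold (-0.07 ± 0.11, adjusted p = 0.613). With all libraries in 1 fit, 2 of the 10 were higher and 0 lower, beside 4768 and 4505 of all genes. With experiment 3 alone, 0 were higher and 2 lower, beside 3748 and 3352. With experiment 4 alone, 8 were higher and 1 lower, beside 4688 and 4388. With library totals, 5 were higher and 0 lower. Over all genes, library totals moved the split from 5167 higher and 5037 lower to 6303 and 3883.

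In the labelled Upf1 knockout inputs of experiment 4, Gata4, Gata6, Sox17 and Sox7 reached their highest input levels of the series. Gata4 was 18.4, 14.4 and 15.6 CPM there, against 9.42 to 10.3 in HA-Tnrc6a and 11 to 11.9 in untagged libraries. Sox7 was 6.60, 6.06 and 7.59 CPM, against 3.07 to 3.69 and 4.27 to 4.43. Col4a1 was 137, 138 and 125 CPM, against 79.7 to 91.5 and 102 to 109. Dab2, at 6.48 to 9.24 CPM, lay below both, and Foxa2 overlapped with both. Lama1, Lamb1 and Lamc1 overlapped with the HA-Tnrc6a libraries and lay above the untagged ones. For Gata4, Sox7 and Col4a1, no library of another genotype reached the labelled Upf1 knockout range in experiment 4.

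The IP libraries were not used in the choice of Dab2, although they come from the same lysates. An IP level carries the level in its lysate, so these values are no independent check of the input difference. In IPs, Dab2 was 2.71, 2.38 and 3.38 CPM in Ago2 knockout against 24.1, 22.5 and 25.8 in HA-Tnrc6a in experiment 3, and 3.41, 2.10 and 2.51 against 14.0, 14.3 and 14.5 in experiment 4. The Ago2 knockout IPs were lower in both experiments without overlap, a 6.59-fold difference (log2 -2.72 ± 0.11). It stood beside log2 -2.73 ± 0.11 in the inputs that chose Dab2, and is a description. Gata6 was 0.585, 0.297 and 1.28 against 8.32, 6.57 and 7.97 CPM, and 1.76, 1.14 and 1.91 against 13.9, 11.3 and 9.85 CPM (log2 -3.03 ± 0.18, adjusted p = 1.00e-11). For Gata6, too, no Ago2 knockout IP reached the level of a HA-Tnrc6a IP.

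Of the 10 genes, 9 were lower in Ago2 knockout than in HA-Tnrc6a IPs and 0 higher, beside 39.7% of all genes called, 20.8% as higher and 19.0% as lower. In 7 of the 10 the libraries did not overlap within either experiment, which held for 9.66% of all genes. The others past the threshold were Sox17 (log2 -2.89 ± 0.32), Foxa2 (-2.0 ± 0.29), Col4a1 (-1.88 ± 0.13), Sox7 (-1.30 ± 0.17), Lama1 (-1.14 ± 0.19), Gata4 (-0.80 ± 0.12) and Lamb1 (-0.49 ± 0.16), with adjusted p from 5.83e-08 for Col4a1 to 0.0287 for Lamb1. Lamb1 lost its call in 6 of 12 fits that left out a library, and with experiment 4 alone Lama1 and Lamb1 lost theirs. Lamc1 was at -0.12 ± 0.10 (adjusted p = 0.376). The median was -1.59 over the 10 and -0.01 over all genes tested.

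**Figure D3:**
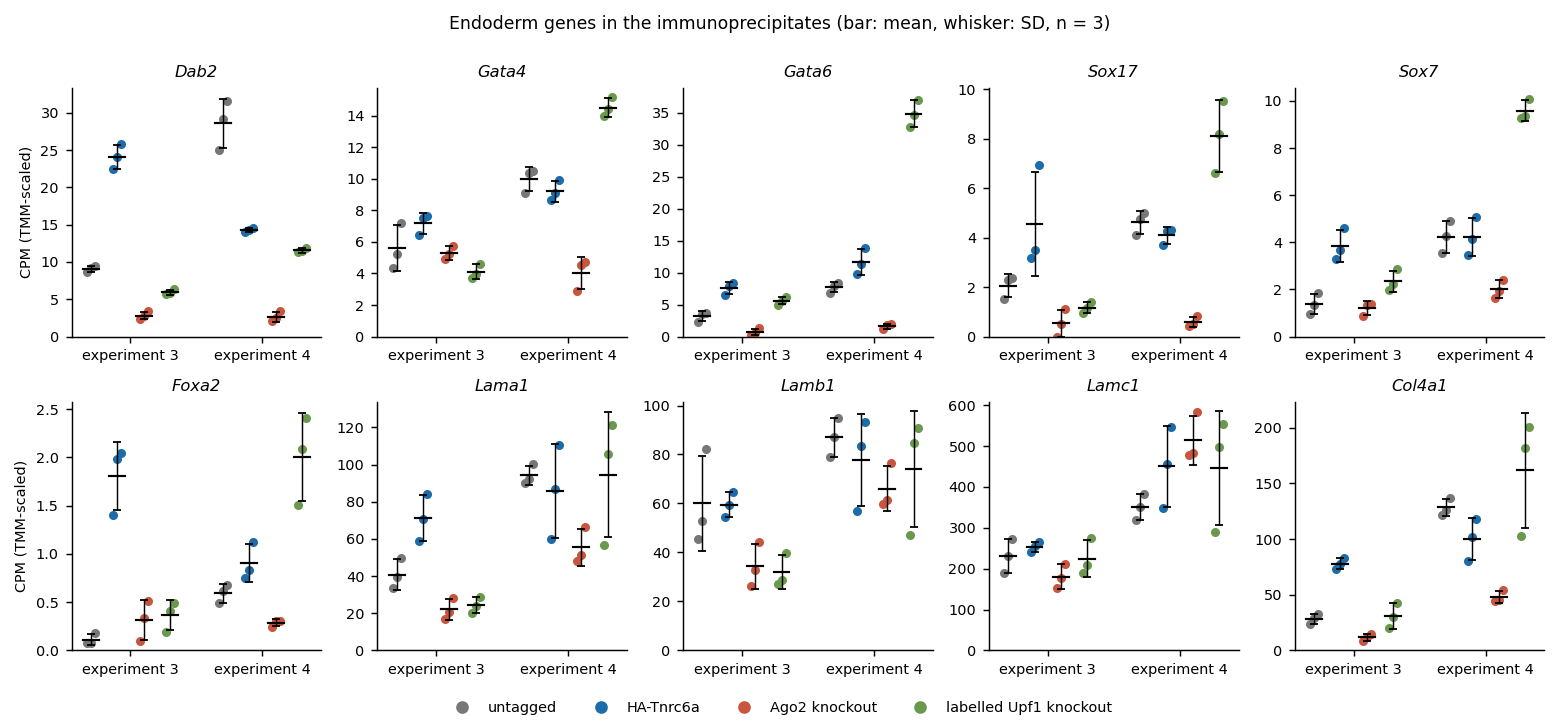
Level of each of the 10 genes (CPM, linear axis from 0) in the 24 IP libraries, by experiment and genotype; points are libraries, bars the mean and whiskers the SD of 3. Dab2 in untagged IPs of experiment 4, at 25.0 to 31.5 CPM, lies above the HA-Tnrc6a IPs at 14.0 to 14.5 CPM, and the Ago2 knockout IPs lie lowest for Gata6 in both experiments.

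Whether HA-Tnrc6a held these RNAs was measured as IP over input in HA-Tnrc6a relative to IP over input in untagged cells, where the beads alone set the background. IP over input of Dab2 was 2.7 and 2.62 in untagged cells and 1.34 in both experiments in HA-Tnrc6a cells. The difference was log2 -0.97 ± 0.11, a description because it divides by the HA-Tnrc6a inputs that chose Dab2. Lamb1 was lower (-0.54 ± 0.17, adjusted p = 0.00877). Gata6 was recovered more with the tag, at 1.90 and 1.76 against 1.15 and 0.974 (log2 0.79 ± 0.18, adjusted p = 0.000265), and so was Foxa2 (1.49 ± 0.53, adjusted p = 0.0153). In all, 2 of the 10 were higher and 2 lower, beside 62.0% of all genes called, 29.8% as higher and 32.2% as lower. With library totals in place of TMM, 2 were higher and 4 lower, beside 5121 and 7976 of all genes. Without the third untagged input of experiment 3, Foxa2 was at 0.98 and no longer passed. The median of all genes tested was -0.10 on this scale.

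**Figure D4:**
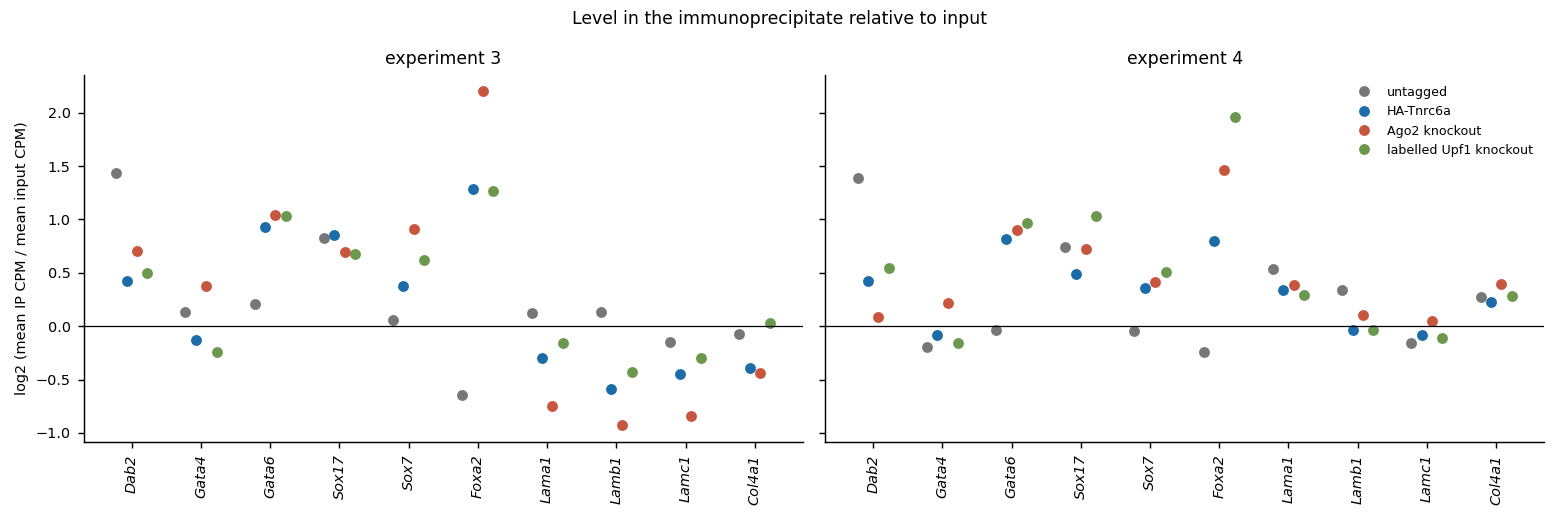
Log2 ratio of the mean IP level to the mean input level (both in CPM) for each gene and genotype, in experiment 3 (left) and experiment 4 (right). Dab2 has its highest ratio in untagged cells in both experiments, while Gata6 and Foxa2 have their lowest there.

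Recovery in the 2 knockouts was set against HA-Tnrc6a in the same way. By edgeR's test, 0 of the 10 genes differed in Ago2 knockout, beside 21.3% of all genes called, 9.09% as higher and 12.3% as lower. Of the 10, 1 (Gata4) had an unadjusted p under 0.05, and DESeq2 called 0. This comparison contains the inputs that chose Dab2 and is a description for it. Dab2 was at log2 -0.02 ± 0.18, Gata6 at 0.16 ± 0.29 and Col4a1 at 0.05 ± 0.13. Gata4 was at 0.38 ± 0.15 and passed in 3 of 24 fits that left out a library. In labelled Upf1 knockout, 0 of the 10 differed, beside 4.49% of all genes (2.92% higher and 1.57% lower), and 0 of the 10 passed at an unadjusted p under 0.05 and 0 by DESeq2. Over all genes, 583 were higher and 313 lower, against 224 and 778 with library totals, 352 and 315 with RLE size factors, 349 and 385 without the count filter, and 257 and 447 with all libraries in 1 fit. The values of the 10 ran from -0.04 ± 0.12 for Gata4 to 0.60 ± 0.42 for Foxa2.

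A threshold of a 2-fold change besides the adjusted p separated the comparisons further. In Ago2 knockout against HA-Tnrc6a inputs, 7 of the 10 genes were at least 2-fold lower and 0 higher, beside 1.25% and 0.560% of all genes, and the 3 others were Lama1, Lamb1 and Lamc1. Against untagged inputs 7 were lower and 0 higher, beside 1.13% and 2.06%. In IPs 7 were lower and 0 higher, beside 1.61% and 1.13%, with Lama1 in the place of Gata4. For labelled Upf1 knockout against HA-Tnrc6a inputs Dab2 and Foxa2 were lower and 0 genes higher, beside 3.10% and 2.18%, and against untagged inputs 0 were lower and 0 higher, beside 1.84% and 2.45%. For untagged against HA-Tnrc6a inputs Dab2 alone was lower and 0 genes higher, beside 0.917% and 0.113%. In tag enrichment 0 were lower and Foxa2 alone was higher, beside 4.95% and 16.5%. Recovery gave 0 in either direction, beside 0.690% lower and 0.430% higher in Ago2 knockout and 0.105% and 0.0651% in labelled Upf1 knockout.

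Across the 24 inputs, centred within each experiment, the log2 CPM of Dab2 correlated most with Col4a1 (Pearson r = 0.931) and Col4a2 (0.916) among 11090 genes with an average log2 CPM of at least 3. Next came Pitrm1 (0.861), Ppfia4 (0.850) and Chst11 (0.843), and the least alike were Arl4a (-0.894), Eif2s2 (-0.892), Fxyd6 (-0.865), Actg1 (-0.847) and Ubap1 (-0.845). The points share 4 genotypes in 2 experiments, and the values that chose Dab2 are among them, so these r are descriptions. The r with Dab2 was 0.738 to 0.860 for Gata4, Gata6, Lama1, Foxa2, Sox7 and Sox17, 0.564 for Lamb1 and 0.055 for Lamc1. The closest pair of the 10 was Sox7 and Col4a1 (0.940), Gata6 was closest to Sox17 (0.922), and Lama1 to Lamb1 (0.898). Lamc1 had a median r of 0.011 with the other 9 genes.

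Other genes of the primitive endoderm were taken from a list of 26, of which 23 were in the table. In Ago2 knockout against HA-Tnrc6a inputs, 14 of 23 were lower and 2 higher past the threshold, beside 15.2% and 15.7% of all genes, with a median log2 fold change of -0.40 against -0.01 over all genes. Cubn, the cubilin receptor that Dab2 helps to internalise, was lower by log2 -3.44 ± 0.13, Col4a2 by -1.96 ± 0.06 and Pdgfra, the receptor that marks primitive endoderm, by -1.78 ± 0.14. Fst (0.80 ± 0.12), an activin-binding protein, and Nid1 (0.35 ± 0.03), a basement membrane linker, were higher. The list is described only, because these inputs chose Dab2. Its summed level differed less, at 855 to 909 CPM in Ago2 knockout and 915 to 1021 in HA-Tnrc6a inputs of experiment 3. In experiment 4 it was 949 to 987 against 981 to 1017 CPM. The sum was set largely by Apoe, Sparc, Nid1 and Hspg2, with input medians of 239, 210, 166 and 157 CPM. Their log2 differences were -0.03, -0.30, 0.35 and 0.07. Cubn and Pdgfra, with medians of 3.30 and 3.37 CPM, added little to it. In IPs, 14 of 22 tested were lower and 1 higher, beside 19.0% and 20.8% of all genes, again with Cubn (log2 -3.44 ± 0.19) and Col4a2 (-2.06 ± 0.14) lowest.

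The other lists were read in the same input contrast, against the same 15.7% higher and 15.2% lower over all genes. All gave calls in both directions except the fibroblast list, whose calls were all lower, and those of the pluripotency list were mostly higher. Of 18 further basement membrane and integrin genes, 5 were higher and 4 lower (median 0.04), with Lamb3 at -0.62 ± 0.15. Of 31 genes of clathrin adaptors and Dab2 cargo receptors, 7 were higher and 7 lower (median -0.02), and the lowest were the receptors Cubn, Amn (-1.14 ± 0.15) and Lrp2 (-0.40 ± 0.08). Of 16 pluripotency genes, 10 were higher and 1 lower, with Klf2 at 0.49 ± 0.03 and Klf4 at -0.24 ± 0.02 (median 0.09). Of 7 definitive endoderm genes tested, 1 was higher and 1 lower, and of 5 fibroblast genes 0 were higher and 4 lower, Col1a1 at -0.62 ± 0.14. The lists share Col4a2, Nid1 and Cubn, among others. In trophectoderm, mesoderm and neuroectoderm lists, 3, 1 and 3 genes were higher and 2, 1 and 1 lower, of 7, 5 and 5 tested.

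Among summed levels of other cell type markers, that of the 8 trophectoderm genes was higher in Ago2 knockout than in HA-Tnrc6a inputs, at 141 to 147 against 101 to 109 CPM in experiment 3 and 96.3 to 98.8 against 78.9 to 86.2 in experiment 4. Tfap2c was the most abundant of them, at a median of 64.6 CPM over all inputs, and was higher by log2 0.55 ± 0.03. Of the 7 tested 3 were higher and 2 lower, the latter Krt7 (-1.29 ± 0.24) and Tead4 (-0.14 ± 0.05), so the sum does not speak for the list. The 6 neuroectoderm genes summed to 67.7 to 71.0 against 70.1 to 72.7 CPM and 55.9 to 58.4 against 54.8 to 57.9, and the 6 mesoderm genes to 5.41 to 7.88 against 8.49 to 9.82 and 6.20 to 7.88 against 6.85 to 7.21 CPM. In inputs of experiments 3 and 4, the summed level of the 6 fibroblast genes in the table was 35.1 to 39.8 and 30.8 to 34.3 CPM in Ago2 knockout and 45.1 to 50.8 and 38.9 to 39.3 in HA-Tnrc6a. The 7 definitive endoderm genes summed to 17.3 to 20.0 and 15.7 to 16.7 CPM in Ago2 knockout and to 15.9 to 16.6 and 16.7 to 18.0 in HA-Tnrc6a. The part of these cells in the levels of the 10 genes was not tested. The defining trophectoderm genes Cdx2 and Elf5 and the visceral endoderm genes Afp, Ttr and Apoa1 were not analysed here. Labelled Upf1 knockout inputs of experiment 4 had the highest summed level of the other primitive endoderm genes, at 1319 to 1372 CPM, beside their high Gata6, Gata4 and Sox17.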

How the data were processed

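RNA from inputs and HA immunoprecipitates was sequenced after a stranded total RNA preparation, per the labels' protocols. The authors deposited raw read counts per gene and each gene's length in bases, per the file headers. The submitters' processing notes name STAR 2.7.3a, bcl2fastq 2.20, GRCm38 and mm10, with no role or order, and the counting tool and its strand setting are not given in the sources used here. A further 48 columns of normalised values were not used.

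The 48 count columns name genotype and fraction and gave 8 groups of 6. Column numbers 1 to 3 and 4 to 6 were taken as experiments 3 and 4, which is inferred. Gene symbols came from the table (16427 genes) or a RefSeq-based name table (3725), and 19 genes had none. Counts were fitted with edgeR 4.0.16 in R 4.3.3 (with limma 3.58.1) by the quasi-likelihood F-test, two-sided, with TMM factors, filterByExpr at a minimum count of 10 and Benjamini-Hochberg adjustment over all genes tested. Each comparison held only its own groups, with the contrast averaged over both experiments, and the difference between experiments was tested in the same fit. DESeq2 1.42.0 was an alternative, as were other scalings, no filter, all libraries in 1 fit, a replicate block, each experiment alone, a fold change of at least 2 and leaving out each library (not run for either knockout against untagged inputs or for recovery in labelled Upf1 knockout). CPM values and correlations use TMM over all 48 libraries, with a prior count of 2 for log2 CPM. The fits were tested on simulated data.

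The members and lists were chosen with earlier results of these data known. All 10 members are named; from each list, at most 3 genes per direction of largest change could be named, if past the threshold (0.05), alike in sign between experiments and not below 1 in mean log2 CPM. For likeness to Dab2, the 5 highest and 5 lowest correlations are named. Some genes that the rule would allow are not reported here. P-values measure the spread between the samples of a group. Totals of 11471544 to 73845953 counts per library limit the precision of genes with few counts, such as Foxa2.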

Additional observations from a re-analysis of the deposited data

Results flagged for a closer look

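In the HA-Tnrc6a IPs, the third library of experiment 3 had 6.95 CPM of Sox17, far above the other five, which lay between 3.18 and 4.32 CPM. It was the only such library among 80 combinations of a gene and a group. Chance gives about 1 in 20 where all libraries of a group come from a single population. Here each group spans both experiments, so that rate is only a rough guide.

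The difference between 2 groups changed between the experiments, by edgeR's test of that change, in the results that follow, each given as the log2 difference in experiment 4 minus that in experiment 3. For inputs of Ago2 knockout against HA-Tnrc6a, the change was 1.30 for Dab2, 1.05 for Sox7, 0.56 for Lama1 and 1.46 for Col4a1. Against untagged inputs the sign was the opposite, at -1.16 for Dab2, -1.39 for Gata4, -0.61 for Lama1, -0.43 for Lamb1 and -0.63 for Col4a1.

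For labelled Upf1 knockout against HA-Tnrc6a inputs the change was 1.70 for Dab2, 1.44 for Gata4, 2.01 for Gata6, 2.23 for Sox17, 2.00 for Sox7, 2.26 for Foxa2, 1.90 for Lama1, 1.02 for Lamb1 and 2.42 for Col4a1. For untagged against HA-Tnrc6a inputs it was 2.45 for Dab2, 0.84 for Gata4, 1.01 for Sox17, 1.58 for Sox7, 2.53 for Foxa2, 1.16 for Lama1, 0.49 for Lamb1 and 2.09 for Col4a1. Both comparisons, and that of Ago2 knockout, share the HA-Tnrc6a inputs, and the values of Dab2 in them are descriptions because those inputs chose it.

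For labelled Upf1 knockout against untagged inputs it was -0.74 for Dab2, 1.24 for Gata6, 1.24 for Sox17, 0.75 for Lama1, 0.54 for Lamb1 and 0.34 for Col4a1. Dab2 is the one gene of these with a negative change. In IPs of Ago2 knockout against HA-Tnrc6a, the change in Col4a1 was 1.69.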

How the results depend on the processing

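Of the 10 genes' values under settings other than leaving out a library, 649 kept direction and side of the threshold, 47 reversed, 13 gained and 26 lost their call; over the fits that left out a library these were 913, 24, 9 and 14. The cause was not tested for any of them. The gene counts that follow are in the order Ago2 knockout, labelled Upf1 knockout and untagged against HA-Tnrc6a inputs, labelled Upf1 knockout and Ago2 knockout against untagged inputs, tag enrichment, IPs, and recovery in Ago2 knockout and labelled Upf1 knockout. A fold change of at least 2 left 355, 1026, 200, 829, 618, 4283, 516, 224 and 34 genes, and of the 10 genes it left 2 in labelled Upf1 knockout and 1 in untagged against HA-Tnrc6a inputs, 0 in labelled Upf1 knockout against untagged inputs and 1 in tag enrichment. With all libraries in 1 fit, 3902 genes passed for Ago2 knockout and 1937 for untagged against HA-Tnrc6a inputs, and 2 of the 10 for labelled Upf1 knockout against untagged inputs.

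With experiment 3 alone, 3382, 652 and 2653 genes passed for Ago2 knockout against HA-Tnrc6a, untagged against HA-Tnrc6a and Ago2 knockout against untagged inputs, 3942 in IPs, and 1623 and 162 in recovery of the 2 knockouts; 2 of the 10 passed for labelled Upf1 knockout against untagged inputs. Reversed there were, for labelled Upf1 knockout against HA-Tnrc6a inputs, Gata4 (-0.70), Gata6 (-0.57) and Sox7 (-0.94), and against untagged inputs Dab2 (0.31), Gata4 (-0.096) and Gata6 (-0.041). Also reversed were Sox17 in tag enrichment (0.13), Dab2 (0.29), Sox17 (-0.24) and Col4a1 (-0.091) in recovery in Ago2 knockout, and Sox17 (-0.20) and Foxa2 (-0.071) in labelled Upf1 knockout.

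With experiment 4 alone, 2 of the 10 passed in tag enrichment, beside 11344 of all genes, and 384 genes in recovery in labelled Upf1 knockout. Reversed were Lamc1 (0.063) for Ago2 knockout, Sox17 (0.45), Foxa2 (0.0029), Lama1 (0.20), Lamc1 (0.034) and Col4a1 (0.65) for labelled Upf1 knockout, and Dab2 (0.034), Gata4 (0.23), Gata6 (0.25), Sox7 (0.41), Foxa2 (0.42) and Col4a1 (0.32) for untagged, all against HA-Tnrc6a inputs. Against untagged inputs these were Sox17 (0.53), Lama1 (0.26) and Lamb1 (0.16) in labelled Upf1 knockout and Lamb1 (-0.17) in Ago2 knockout. In tag enrichment they were Gata4 (0.093) and Lamc1 (0.057), in IPs Lamc1 (0.21), and in recovery in Ago2 knockout Lama1 (0.043), Lamb1 (0.14) and Lamc1 (0.14).

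IP libraries without inputs gave 13650 genes and 7 of the 10 for the tag, with Dab2 (0.23), Gata4 (0.15), Sox17 (0.51), Lama1 (0.36), Lamc1 (0.27) and Col4a1 (0.57) reversed. For labelled Upf1 knockout they gave 8805 genes and 4 of the 10, with Dab2 (-1.14), Sox17 (-0.48), Foxa2 (-0.57), Lama1 (-0.69), Lamb1 (-0.47), Lamc1 (-0.076) and Col4a1 (-0.31) reversed; by construction these hold the input difference.

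Leaving out 1 library turned the sign of Lamc1 for Ago2 knockout inputs (-0.046 to 0.0077), Gata4 for labelled Upf1 knockout inputs (-0.034 to 0.052), Gata4 (-0.15 to 0.052) and Sox17 (-0.32 to 0.015) in tag enrichment, and Col4a1 (-0.028 to 0.15), Dab2 (-0.12 to 0.12), Gata6 (-0.21 to 0.31) and Sox17 (-0.61 to 0.40) in recovery in Ago2 knockout, where 0 to 1 of the 10 passed. Deviations from the group mean correlated by a mean of 0.0365 over 168 same-numbered pairs of libraries (-0.169 to 0.504) and -0.0181 over 336 others. Centring on the group mean ties the second value to the first, and the pairs mix genotypes and fractions. These values therefore cannot decide whether an input and an IP of the same number belong together, and no pairing was used in the main fits. With the replicate block, Lamc1 for labelled Upf1 knockout against HA-Tnrc6a inputs stayed at -0.15 and lost its call. There, 7 of the 10 passed, beside 11541 of all genes. Few counts limit Foxa2 and, in Ago2 knockout, Sox17 and Gata6.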
